A study of Homo sapiens with 18 samples.

Results

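The genes described here carry SMAD signals from the cell surface to the nucleus: the receptor-regulated genes SMAD1, SMAD2, SMAD3 and SMAD5, the common partner SMAD4, the inhibitory genes SMAD6 and SMAD7, the corepressor gene SKI, and the ubiquitin ligase genes SMURF1 and SMURF2. They were chosen by gene symbol for their known roles, with earlier results of these data known. Of the 10 genes, 8 were found among the 8996 genes of the table. SMAD7 and SMURF1 have no row by symbol or by gene identifier, so they are absent here and were not analysed. mRNA turnover was measured by SLAM-seq in wild-type HEK293T cells, an established human embryonic kidney line, treated with STM2457 or with its solvent DMSO. STM2457 blocks METTL3, which writes most N6-methyladenosine (m6A) on mRNA, and its use here asks what happens to mRNA decay once m6A is no longer added. In both arms the compound or solvent was present for 3 h before 100 µM 4-thiouridine (s4U) was given for 90 or 180 min, or left out. Each of the 6 combinations had 3 samples, giving 9 for STM2457 and 9 for DMSO. New RNA carries s4U, which is read as T-to-C conversions in sequencing reads from the 3′ end of polyadenylated mRNA.

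SMAD proteins are the transcription factors of the TGF-beta and bone morphogenetic protein (BMP) family of growth factors. Activated receptors phosphorylate a receptor-regulated SMAD, which binds SMAD4, enters the nucleus and regulates target genes; SMAD1 and SMAD5 serve the BMP branch, SMAD2 and SMAD3 the TGF-beta and activin branch. SMAD6 and SMAD7 block the pathway and are themselves induced by it, SKI represses transcription by SMAD complexes, and the SMURF ligases mark SMADs and receptors for degradation.

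For every gene the table holds 1 fitted half-life and 1 fitted synthesis rate in STM2457 and the same in DMSO, and neither values of single samples nor intervals nor read counts. Depth is therefore unknown, and differences rest on a pair of fitted values with no replicate spread and no p-value. A gene is called longer-lived or shorter-lived in STM2457 where its half-lives differed by more than 1.5-fold, a log2 ratio beyond 0.585 in either direction. The table holds no expression levels, so the cell line was not checked against markers. It names no time unit; hours are inferred from its highest value, 69.3, which corresponds to a decay rate of 0.01 per hour, and the unit of the synthesis rate is not given. The median mRNA of the table lasted 5.39 h in STM2457 and 5.61 h in DMSO.

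Of the 8 SMAD signalling genes, 3 were longer-lived in STM2457 (SMAD1, SKI and SMAD3), none was shorter-lived and 5 stayed within 1.5-fold. Of all 8996 genes, 28.5% passed the rule as longer-lived and 24.9% as shorter-lived. The median log2 half-life ratio of the 8 genes was 0.23, from -0.56 for SMAD6 to 1.68 for SMAD1, beside -0.01 over all genes. The ratio just past the 1.5-fold rule was 0.74 (SMAD3) and the nearest within it was -0.56 (SMAD6). Half-lives ran from 1.38 h for SMAD6 to 7.72 h for SKI in STM2457 and from 1.14 h for SMAD1 to 3.98 h for SKI in DMSO. The longest was thus 5.60 times the shortest in STM2457 and 3.47 times in DMSO. In STM2457, 7 of the 8 genes lay below the median half-life of all genes, SKI being the exception, and in DMSO all 8 did. No SMAD signalling gene reached the ceiling of 69.3 h in either treatment.

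**Figure D1:**
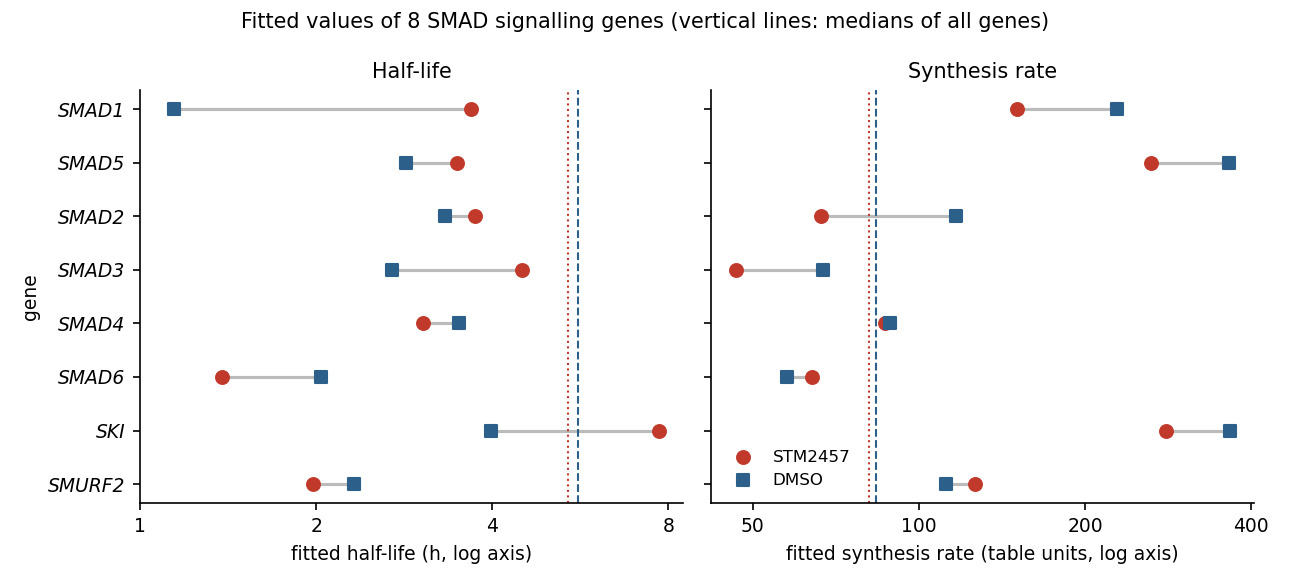
Fitted half-lives in hours (left, log axis) and fitted synthesis rates in the table's own unit (right, log axis) of 8 SMAD signalling genes, with red circles for STM2457, blue squares for DMSO and vertical lines at the medians of all genes (red dotted for STM2457, blue dashed for DMSO). SMAD1 shows the widest gap, at 3.68 h in STM2457 and 1.14 h in DMSO, and SKI is the only gene right of the median half-life, in STM2457.

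The order of the genes differed between the treatments. In STM2457 it was SKI, SMAD3 (4.49 h), SMAD2 (3.74 h), SMAD1 (3.68 h), SMAD5 (3.48 h), SMAD4 (3.05 h), SMURF2 (1.97 h) and SMAD6, from long to short. In DMSO it was SKI, SMAD4 (3.52 h), SMAD2 (3.32 h), SMAD5 (2.85 h), SMAD3 (2.69 h), SMURF2 (2.33 h), SMAD6 (2.04 h) and SMAD1. SKI led both orders, and SMAD1 stood in the middle in STM2457 and last in DMSO. With no spread between samples, neighbours in either order cannot be shown to differ.

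The series title concerns m6A in coding regions, so the coding sequence of each gene was searched for DRACH, the motif in which m6A is placed: A, G or T, then A or G, then AC, then A, C or T. Motifs were counted on the mRNA strand, overlaps allowed, and those at least 100 nt from the nearest exon junction, called far motifs below, were counted apart, since the exon junction complex is known to keep m6A away from junctions. A motif is a feature of the sequence and not a measurement of m6A. Only coding sequence was searched, so motifs in the untranslated regions were not counted. The coding part was 1395 of 2085 nt in the SMAD1 transcript used and 1401 of 34526 nt in that of SMAD2. For 5 of the genes below, a stretch of 100 coding nucleotides within 1 exon (GENCODE 29, GRCh38) is printed 5′ to 3′, with each DRACH match in capitals. For SMAD3, SMAD6 and SKI it was picked for its number of far motifs, the SMAD3 stretch among those that align with SMAD2 without a gap. For SMURF2 it was picked for its number of motifs at any distance, and for SMAD2 it is the stretch that aligns with that of SMAD3.

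SMAD1 (ENSG00000170365.10, chromosome 4, 145481194 to 145558079, plus strand), a receptor-regulated SMAD of the BMP branch, had the largest difference. Its half-life was 3.68 h in STM2457 and 1.14 h in DMSO, 3.21-fold longer with the inhibitor. In DMSO only 2.71% of all genes had shorter half-lives, and in STM2457 31.7% did. Under first-order turnover at a constant level, these half-lives mean that 43.2% of SMAD1 mRNA would be new after 180 min of label in STM2457 and 83.7% in DMSO. Its synthesis rate was 151 in STM2457 and 228 in DMSO, 1.52-fold lower with the inhibitor. Genes of short DMSO half-life had higher ratios in general. Among the 900 genes at or below 1.80 h, 44.1% were longer-lived, with a median of 0.46. The log2 ratio of SMAD1, 1.68, exceeded 87.8% of theirs. The DMSO half-life is also the denominator of the ratio, so the 2 are linked by construction. How much of the trend comes from that link was not tested.

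SMAD5 (ENSG00000113658.18, chromosome 5, 136132845 to 136188747, plus strand), the other measured member of the BMP branch, had a half-life of 3.48 h in STM2457 and 2.85 h in DMSO, a log2 ratio of 0.29 and within 1.5-fold. Its synthesis rate was 263 in STM2457 and 365 in DMSO (log2 ratio -0.47). SMAD1 mRNA lasted 1.06 times as long as SMAD5 mRNA in STM2457 and 0.401 times as long in DMSO, so the paralogs were closer in STM2457 than in DMSO. SMAD9, the third receptor-regulated SMAD of the BMP branch and no member of the list, was 1.60-fold shorter-lived, at 3.78 h in STM2457 and 6.05 h in DMSO. The 3 BMP-branch genes thus lay between 3.48 and 3.78 h in STM2457 and between 1.14 and 6.05 h in DMSO.

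The coding sequences of SMAD1 and SMAD5 are alike in length (1395 nt each) and share 76.7% of 1389 aligned bases, but SMAD1 held 28 DRACH motifs and SMAD5 17, of which 9 lay at the same aligned position. At least 100 nt from a junction were 8 motifs in SMAD1, 7 of them in its first coding exon of 400 nt, and 6 in SMAD5, 4 of them in a first coding exon of 403 nt; 4 of these far motifs were shared.

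SMAD3 (ENSG00000166949.16, chromosome 15, 67063763 to 67195195, plus strand), a receptor-regulated SMAD of the TGF-beta and activin branch, was 1.67-fold longer-lived, with a half-life of 4.49 h in STM2457 and 2.69 h in DMSO. Its synthesis rate was 46.5 in STM2457 and 67.1 in DMSO (log2 ratio -0.53), within 1.5-fold. Among the 899 genes with DMSO half-lives from 2.61 to 3.44 h, 36.2% were longer-lived and the median log2 ratio was 0.20; SMAD3, at 0.74, lay above 68.5% of them. Relative to that median its log2 ratio was 0.54, no longer past the 1.5-fold rule.

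SMAD2 (ENSG00000175387.16, chromosome 18, 47808957 to 47931146, minus strand), its paralog in the same branch, had a half-life of 3.74 h in STM2457 and 3.32 h in DMSO, a log2 ratio of 0.17. Its synthesis rate was 66.5 in STM2457 and 117 in DMSO, 1.75-fold lower and the lowest synthesis ratio of the 8 genes; 6.43% of all genes had a lower one. SMAD2 and SMAD1 were the 2 genes of the list past 1.5-fold in synthesis, both lower with STM2457; among all genes, 13.2% were lower and 12.6% higher. Centred on the median of all genes, -0.06, the log2 synthesis ratio of SMAD1 was -0.54 and no longer past the rule.

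SMAD3 and SMAD2 share 75.6% of 1275 aligned coding bases, the coding sequence of SMAD2 being 1401 nt long. DRACH motifs numbered 24 in SMAD3 and 30 in SMAD2, 10 of them at the same aligned position. Both coding sequences are cut into short exons, 9 in SMAD3 and 10 in SMAD2, the longest of 213 and 236 nt. Only 1 coding motif of SMAD3 and 0 of SMAD2 lay at least 100 nt from a junction. Within the coding sequence, the longer-lived of this pair is thus almost as poor in far motifs as the other. The stretch of SMAD3 that holds its far motif (chr15:67181251-67181350, plus strand) and the aligned stretch of SMAD2 (chr18:47848578-47848677, minus strand) are equal at 69 of 100 bases.
SMAD3: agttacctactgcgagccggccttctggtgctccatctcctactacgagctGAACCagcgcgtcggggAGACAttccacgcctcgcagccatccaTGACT
SMAD2: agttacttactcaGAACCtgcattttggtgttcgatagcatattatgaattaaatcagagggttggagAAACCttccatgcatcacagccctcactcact
The last motif of the SMAD3 line is the far one, and SMAD2 has no motif at that place. SMAD3 has 3 motifs here and SMAD2 has 2, a number reached by 57.2% of coding stretches of this length.

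SMAD4 (ENSG00000141646.13, chromosome 18, 51028394 to 51085045, plus strand), the partner shared by both branches, was close to even. Its half-life was 3.05 h in STM2457 and 3.52 h in DMSO, a log2 ratio of -0.21, and its synthesis rate 86.9 in STM2457 and 88.7 in DMSO, a log2 ratio of -0.03. Its coding sequence of 1656 nt has 11 coding exons and 32 DRACH motifs, 5 of them at least 100 nt from a junction. SMAD4 thus had more far motifs than SMAD3 and a lower half-life ratio.

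SMAD6 (ENSG00000137834.15, chromosome 15, 66702228 to 66782848, plus strand), the inhibitory SMAD best known for restraining BMP signals, had the lowest half-life ratio of the 8 genes. Its half-life was 1.38 h in STM2457 and 2.04 h in DMSO, 1.48-fold shorter with the inhibitor and so just inside the rule of 1.5-fold. In STM2457 3.60% of all genes had shorter half-lives, and in DMSO 12.8% did. Among the 900 genes with DMSO half-lives from 1.81 to 2.61 h, 40.0% were longer-lived and 5.67% shorter-lived; the ratio of SMAD6 exceeded 5.89% of theirs and lay 0.90 below their median on the log2 scale. Its synthesis rate was 63.9 in STM2457 and 57.6 in DMSO (log2 ratio 0.15).

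The coding sequence of SMAD6 held 6 DRACH motifs in 1488 nt, 4.03 per 1000 nt against a median of 19.9 over all genes, and 71.8% of its bases are G or C against a median of 51.7%. All 6 motifs lie in its first coding exon of 817 nt and at least 200 nt from a junction. By number of far motifs SMAD6 equals SMAD5 and stands 2 below SMAD1, whose half-life ratio was the highest. A stretch of that exon (chr15:66703727-66703826, plus strand) holds 3 of the 6. Of 107865 coding stretches of 100 nt over the table's genes, cut side by side and not picked for motifs, 30.5% held at least 3. The SMAD6 stretch was picked for its motifs, so this share does not show whether it is unusual.
SMAD6: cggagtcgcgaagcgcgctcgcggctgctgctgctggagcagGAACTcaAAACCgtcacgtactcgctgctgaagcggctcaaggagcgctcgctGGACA

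SKI (ENSG00000157933.10, chromosome 1, 2228695 to 2310119, plus strand), a corepressor that binds SMAD complexes, was 1.94-fold longer-lived, at 7.72 h in STM2457 and 3.98 h in DMSO. Its synthesis rate, 281 in STM2457 and 365 in DMSO, had a log2 ratio of -0.38. With half-lives this long, 23.6% of SKI mRNA would be new after 180 min in STM2457 and 40.7% in DMSO. Among the 900 genes with DMSO half-lives from 3.44 to 4.43 h, 30.8% were longer-lived, and the ratio of SKI exceeded 76.4% of theirs. SKIL, the close relative of SKI that also represses SMAD complexes and is no member of the list, was longer-lived too, 1.73-fold, at 3.12 h in STM2457 and 1.80 h in DMSO, with a log2 synthesis ratio of -0.87. SKI held 22 DRACH motifs in 2184 coding nucleotides, 8 of them at least 100 nt from a junction, and 5 of those 8 in its first coding exon of 969 nt. The stretch shown (chr1:2229480-2229579, plus strand) includes GGACT, which SKI held 2 times in its coding sequence. GGACT was not particular to SKI: SMAD4 held 3, SMURF2 2, SMAD1 and SMAD2 1 each, and SMAD3, SMAD5 and SMAD6 0. The last 2 motifs of the stretch touch each other.
SKI: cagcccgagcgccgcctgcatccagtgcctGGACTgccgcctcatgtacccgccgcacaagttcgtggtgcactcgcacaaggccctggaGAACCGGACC

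SMURF2 (ENSG00000108854.16, chromosome 17, 64542295 to 64662068, minus strand), a ubiquitin ligase for SMADs and their receptors, had a half-life of 1.97 h in STM2457 and 2.33 h in DMSO, a log2 ratio of -0.24. Its synthesis rate was 126 in STM2457 and 112 in DMSO (log2 ratio 0.18). Its 3′ end lies within CEP95 on the opposite strand, a gene also in the table, and no source used here states whether reads were counted by strand, so the values of SMURF2 are uncertain. Genes that overlap the other 7 measured members do not cover the annotated 3′ ends of those genes and are not in the table. Ends of shorter transcripts inside these genes were not checked. Overlaps on the same strand exist for SMAD2, SMAD4, SMAD5 and SMAD6. SMURF2 had the most DRACH motifs of the 8 genes, 58 in 2244 coding nucleotides and 25.8 per 1000 nt, but its coding sequence is split into 19 exons of at most 203 nt and 0 motifs lay at least 100 nt from a junction. Its densest stretch within an exon (chr17:64562867-64562966, minus strand) holds 5 motifs and is shown as the contrast to SKI and SMAD6. Of the unpicked coding stretches of this length, 4.28% held at least 5. The SMURF2 stretch was picked as the densest of its gene, so this share does not show whether it is unusual.
SMURF2: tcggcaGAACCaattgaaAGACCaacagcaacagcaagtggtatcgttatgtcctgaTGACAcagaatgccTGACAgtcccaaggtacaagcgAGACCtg

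Over the 8 genes there were 217 coding DRACH motifs, 34 of them at least 100 nt from a junction. By this number SMAD1 and SKI led with 8 each, followed by SMAD5 and SMAD6 with 6, SMAD4 with 5, SMAD3 with 1, and SMAD2 and SMURF2 with 0; the median over 8527 genes with a coding transcript was 3. At this distance the genes with the highest half-life ratios, SMAD1 and SKI, had the most far motifs by number. SMAD3 was longer-lived with 1, and SMAD6 had the lowest ratio with 6. Per 1000 coding nt, far motifs came to 5.73 in SMAD1, 4.30 in SMAD5, 4.03 in SMAD6 and 3.66 in SKI. By that measure SKI stood below SMAD6. At 50 nt SMAD4 and SMURF2 led with 19 each, against 18 in SMAD1 and 11 in SKI, and at 200 nt SMAD6 led with 6, against 5 in SMAD1 and 3 in SKI. Of all genes with 4 to 9 far motifs, the class of SMAD1, SKI, SMAD5, SMAD6 and SMAD4, 26.2% were longer-lived and 23.2% shorter-lived, and their median log2 ratio was -0.02. Genes with 1 to 3, the class of SMAD3, had 20.3% longer-lived and 31.6% shorter-lived, with a median of -0.22. Genes with 0 had 22.1% longer-lived and 32.6% shorter-lived, also with a median of -0.22, so the share of longer-lived genes did not rise at each step. None of the 8 reached 10 far motifs, the class with the highest share of longer-lived genes at 45.9%.

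**Figure D2:**
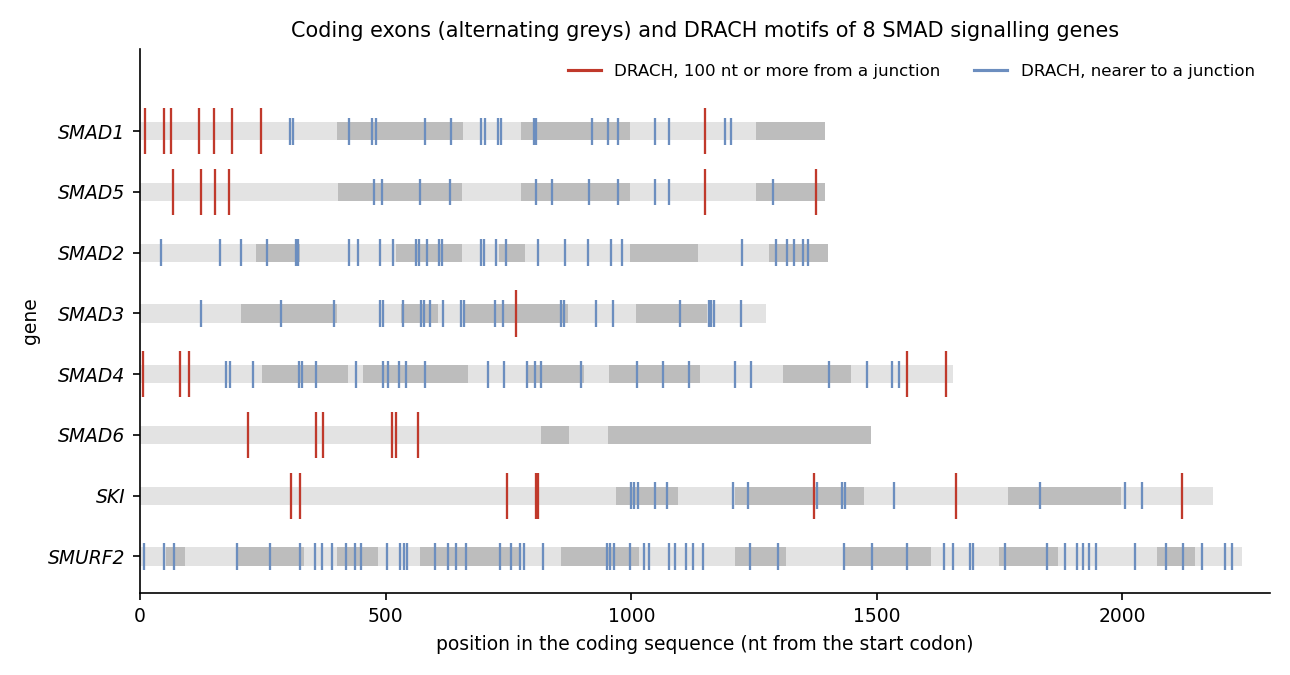
Coding sequences of the 8 SMAD signalling genes from the start codon (x axis, nt), with coding exons in alternating greys, red ticks for DRACH motifs at least 100 nt from an exon junction and blue ticks for nearer ones. The first coding exon holds 7 of 8 far motifs in SMAD1, 6 of 6 in SMAD6 and 5 of 8 in SKI. It also holds 4 of 6 in SMAD5 and 3 of 5 in SMAD4. The 58 motifs of SMURF2 are all near junctions.

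Synthesis and half-life moved in opposite directions in 7 of the 8 genes, SMAD4 being the exception; the same held for 60.9% of all genes. The median log2 synthesis ratio of the 8 genes was -0.43, beside -0.06 over all genes, with 6 genes below 0 and 2 above. All 4 receptor-regulated members had log2 synthesis ratios from -0.81 to -0.47, SMAD6 and SMURF2 had 0.15 and 0.18, and SMAD4 had -0.03. SMAD5 had the highest ratio of these 4, and 18.4% of all genes had a lower one. SMAD9, a receptor-regulated SMAD outside the 8 genes, had 0.04, so the lower synthesis did not extend to it. Both values of a gene come from the same fit and are not independent; across 8993 genes, which are not replicates, Spearman's rho between both log2 ratios was -0.35.

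**Figure D3:**
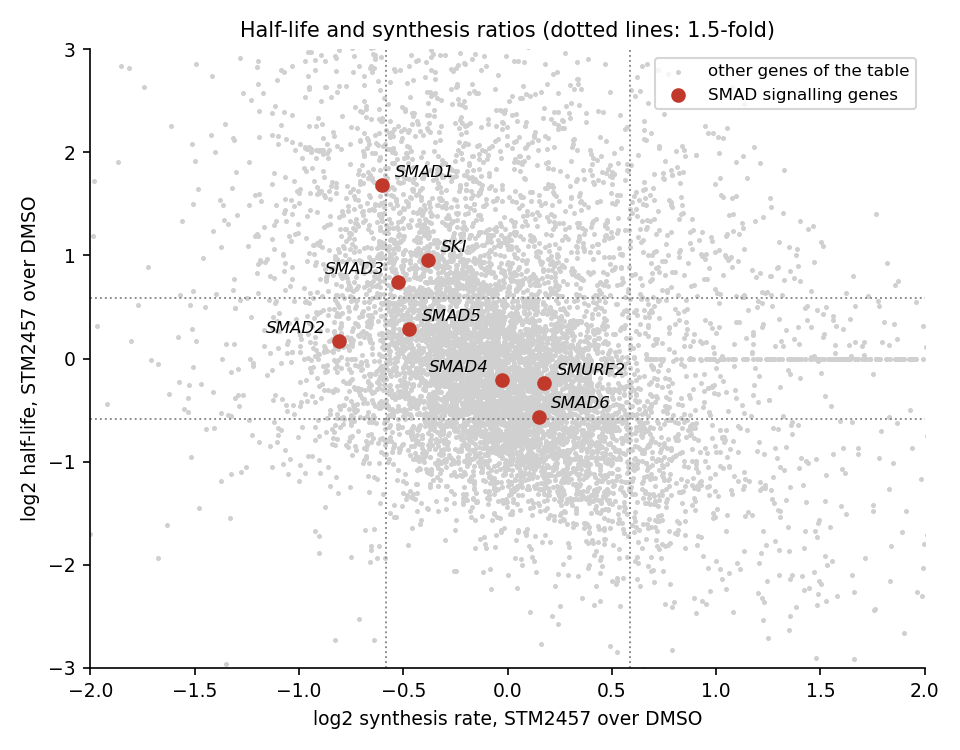
log2 ratio of the synthesis rate (x axis) and of the half-life (y axis), STM2457 over DMSO, for all genes (grey) and for the 8 SMAD signalling genes (red), with dotted lines at 1.5-fold; 494 genes lie outside the axes. SMAD1, SKI and SMAD3 lie above the upper line, and SMAD1 and SMAD2 left of the left line.

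Half-life times synthesis rate gives the abundance that each fit implies at steady state. For SMAD1 it was 2.12-fold higher in STM2457, the only one of the 8 genes past 1.5-fold upward, and for SMAD2 it was 0.642-fold, the only one past 1.5-fold downward; among all genes, 28.3% were higher and 24.7% lower. SKI came to 1.49-fold, SMAD3 to 1.16-fold, SMURF2 to 0.959-fold, SMAD5 to 0.88-fold, SMAD4 to 0.849-fold and SMAD6 to 0.75-fold. In SMAD1, SKI and SMAD3 the implied abundance differed less than the half-life, since the synthesis rate was lower. Cells had the inhibitor for at most 6 h. If the fitted STM2457 rates held from its addition and cells began at the DMSO steady state, 6 h would bring SMAD1 to 1.76-fold, SKI to 1.21-fold and SMAD3 to 1.1-fold, so the implied steady states of these 3 genes would not yet be reached.

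The other genes of the pathway were taken as 5 lists, fixed by role, with earlier results of these data known, and without the 10 genes above. Of their 155 symbols, older names included, 83 were in the table; TGFBR2, ACVR1, TGIF1 and RNF111 were among those with no row. Of these 83 genes, 28 passed the rule as longer-lived and 14 as shorter-lived, 41 did not pass it, and the median log2 ratio was 0.14. The lists overlap: SKIL is both a cofactor and a target gene, and TRIM33 both a cofactor and a ubiquitin enzyme. Both count in each of their lists but are not doubled among the 83. Set beside the 28.5% and 24.9% of all genes, these counts are a description, and no list was tested.

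The 12 ligands, antagonists and processing factors included 5 longer-lived and 3 shorter-lived genes, with a median of 0.18. TWSG1, a secreted BMP-binding protein, was 3.36-fold longer-lived, at 20.3 h in STM2457 and 6.04 h in DMSO. FURIN, the protease that matures TGF-beta precursors, was 3.15-fold shorter-lived, at 3.43 h in STM2457 and 10.8 h in DMSO. The 11 receptors and coreceptors included 4 longer-lived and 1 shorter-lived gene, with a median of 0.40. The type I receptor TGFBR1 was 1.56-fold longer-lived, at 8.79 h in STM2457 and 5.62 h in DMSO, while the BMP receptors BMPR2 and BMPR1A had log2 ratios of 0.37 and -0.19. The BMP coreceptor RGMB was 2.23-fold longer-lived, and the coreceptor TGFBR3 was 1.64-fold shorter-lived, at 1.73 h in STM2457 and 2.83 h in DMSO.

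The list of 29 SMAD cofactors, corepressors and transport factors held 11 longer-lived and 6 shorter-lived genes, with a median of 0.14. SMAD9, though a receptor-regulated SMAD, was placed in this list and counts among the 6 shorter-lived genes. DAB2, an endocytic adaptor of TGF-beta receptors, was 5.67-fold longer-lived, at 15.8 h in STM2457 and 2.78 h in DMSO. TGIF2, a corepressor of SMAD2 and SMAD3, was 2.51-fold longer-lived, at 8.70 h in STM2457 and 3.47 h in DMSO. IPO8, an importin, was 3.80-fold shorter-lived, at 3.93 h in STM2457 and 14.9 h in DMSO. The paralogous coactivators CREBBP and EP300, chosen after their values were seen, were 3.59-fold and 3.27-fold longer-lived.

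Among 15 other ubiquitin and deubiquitinating enzymes of the pathway there were 3 longer-lived and 3 shorter-lived genes, with a median of -0.26. NEDD4L, a relative of the SMURF ligases that acts on SMAD2 and SMAD3, was 2.13-fold longer-lived, at 8.67 h in STM2457 and 4.06 h in DMSO, whereas SMURF2 had a log2 ratio of -0.24. USP9X, a deubiquitinase of SMAD4, was 1.84-fold shorter-lived. SKP1 and WWP2 here, the receptor-binding protein FKBP1A and the ligand-list gene FSTL1, chosen after their values were seen, were at the ceiling of 69.3 h in STM2457. They count as longer-lived, and the ceiling limits their ratios. Among 18 known target genes there were 6 longer-lived and 1 shorter-lived, with a median of 0.37; MSX2, a homeobox target of BMP, was 4.22-fold longer-lived, at 5.57 h in STM2457 and 1.32 h in DMSO, and JUN 1.73-fold shorter-lived, at 0.656 h in STM2457 and 1.14 h in DMSO.

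**Figure D4:**
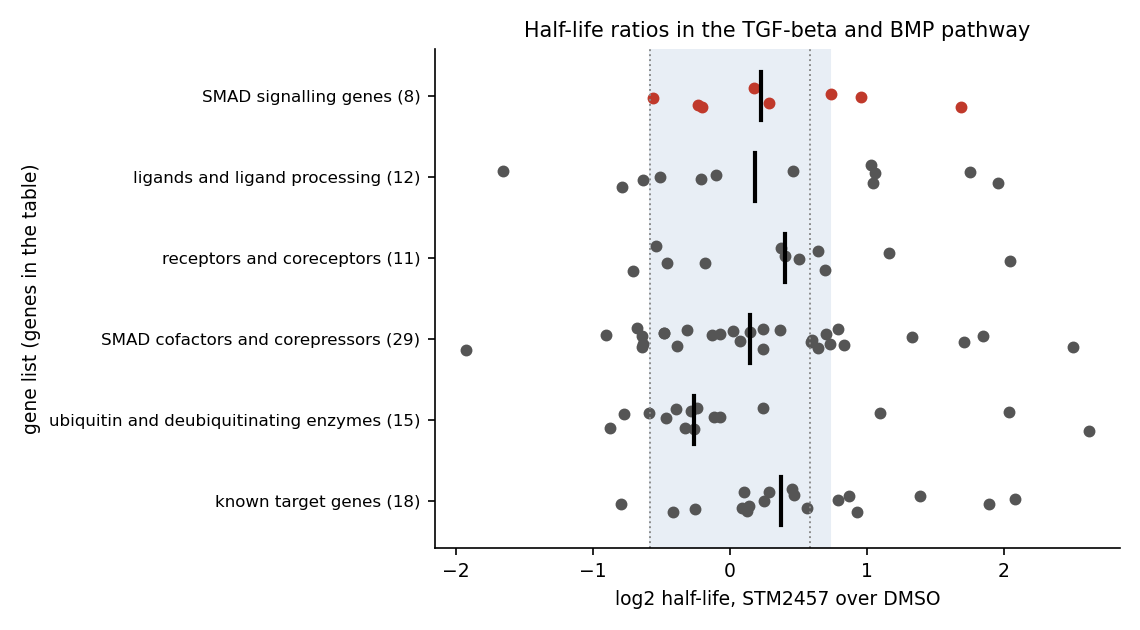
log2 half-life ratio, STM2457 over DMSO (x axis), of the 8 SMAD signalling genes (red) and of the genes of 5 pathway lists (grey points, 1 per gene, with vertical jitter only), with black bars at the list medians, dotted lines at 1.5-fold and the interquartile range of all genes shaded. Each list spans both sides of 0, and the median lies below 0 only for the ubiquitin and deubiquitinating enzymes (-0.26).

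The genes most like SMAD1 over its 4 fitted values, by Euclidean distance between the log2 half-lives and log2 synthesis rates of both treatments, were LATS1, SOBP and TRPS1. LATS1, a kinase of the Hippo pathway, lay at a distance of 0.25, with half-lives of 3.30 h in STM2457 and 1.26 h in DMSO. SOBP had 3.56 h in STM2457 and 1.22 h in DMSO, and TRPS1, a GATA-type repressor, had 3.57 h in STM2457 and 1.47 h in DMSO.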

How the data were processed

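The submitters' processing notes name FastQC 0.11.9, STAR 2.7.8a and the build GRCh38.p12. The kinetic fit, the genes kept and the libraries used for it are not described in these sources. A half-life and a synthesis rate for each gene in STM2457 and in DMSO were deposited by the authors, with their log2 ratios (STM2457 over DMSO). Those log2 ratios, recomputed from the deposited values, differed by at most 1.27e-14; 3 genes have no synthesis ratio. Counts past 1.5-fold in each direction took the place of a test. Genes were also compared within 10 bins of DMSO half-life. Coding sequences came from GENCODE 29: the transcript with the longest coding sequence, for 8527 of 8996 genes, matched by identifier without its version. Paralogs were aligned globally with Biopython 1.88. The text names all measured SMAD signalling genes, the highest and lowest gene of each list with both half-lives from 0.5 to 24 h, 10 fixed pathway genes where measured, and the 3 genes nearest to the member of largest ratio. The members and lists were chosen with earlier results of these data known. Counting was tested on simulated ratios. Python 3.11.15, NumPy 2.4.6, pandas 2.3.3 and Matplotlib 3.10.9 were used.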

Additional observations from a re-analysis of the deposited data

How the results depend on the processing

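With 1 fitted value per treatment, no error, no replicate left out and no p-value could be computed. No paired analysis was possible because the table holds no value for a single sample. Among the 8 SMAD signalling genes, a rule of 2-fold left 1 longer-lived gene (19.7% of all genes) and 0 with lower synthesis (3.18%), and a looser rule, a log2 ratio beyond 0.32, gave 1 shorter-lived gene (36.5%) and 5 with lower synthesis (28.2%). Centring synthesis on the median of all genes left 1 with lower synthesis, since SMAD1 then had a log2 ratio of -0.54. Centred on genes of similar DMSO half-life, the log2 half-life ratio of SMAD3 was 0.54, within 1.5-fold, and that of SMAD6 -0.90, past it. SMURF2, at -0.57, came close to the rule but stayed within it. SMAD1 (1.22) and SKI (0.87) stayed past it, and SMAD4 (-0.30), SMAD2 (-0.02) and SMAD5 (0.09) within it. Half-lives from 0.5 to 24 h, and leaving out ceiling values (added after the data were seen), changed no count for the 8 genes. The shares of all genes did change, to 20.3% longer-lived and 27.4% shorter-lived in that range and to 22.8% and 27.5% without ceiling values, which 980 genes had in STM2457 and 229 in DMSO; shorter-lived genes then outnumbered longer-lived ones. A rule of 2-fold called 19.7% of all genes longer-lived and 11.3% shorter-lived. In the lists it left 1 shorter-lived ligand or processing gene and 0 shorter-lived ubiquitin enzymes. It left 2 longer-lived and 0 shorter-lived receptors, 4 longer-lived and 1 shorter-lived cofactors, and 3 longer-lived and 0 shorter-lived targets. The range of 0.5 to 24 h left 3 longer-lived ligand genes and 1 longer-lived ubiquitin enzyme, and leaving out ceiling values left 1 longer-lived ubiquitin enzyme. Far motifs depended on the distance: the lead of SMAD1 and SKI was lost at 50 nt, where SMAD2 had 11, SMAD3 8 and SMURF2 19, and at 200 nt, where SMAD4 had 0. Counted per 1000 coding nt at the main distance, SMAD1 still led, but SKI fell below SMAD5 and SMAD6. Over all coding transcripts the median for SMAD6 was 3, against 6 in the one used.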
